A study of Capra hircus with 18 samples.

Results

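CEBPB, BCL6 and ETS2 encode 3 transcription factors that were listed in the blood of goats after road transport. They were taken by gene symbol from the 2 deposited tables of the study, and they are 3 of the 1557 distinct genes that those tables list. CEBPB and ETS2 are among the 430 genes of the comparison of 30 min transport with control. All 3 are among the 1247 genes of the comparison of 180 min transport with control, and BCL6 is not listed at 30 min, so its level in the 30 min goats was not analysed here.

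RNA from whole blood was sequenced in 18 goats, 1 library per goat. The goats were uncastrated male Spanish goats aged 8 months, and all had feed withheld overnight. The control group (7 goats) was held in pens, the 30 min group (4 goats) was transported over about 50 km and the 180 min group (7 goats) over about 200 km. Blood was drawn after transport into PAXgene tubes, which stabilise RNA at collection, and globin mRNA was removed before poly-A mRNA was sequenced. The goats were transported on different days that the labels do not give, so the day could not be entered into any test.

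C/EBPβ, the product of CEBPB, is a basic leucine zipper factor that drives genes of neutrophils and macrophages and supports the emergency production of granulocytes during infection. BCL6 is a repressor with a BTB domain and zinc fingers, best known in germinal centre B cells and follicular helper T cells, and it is also made by mature neutrophils and macrophages. ETS2 belongs to the ETS family, whose members bind a GGA core, is a target of RAS, ERK and p38 kinase signalling and takes part in inflammatory gene expression in macrophages. In the deposited annotation, CEBPB (ENSCHIG00000026165) lies on the plus strand of chromosome 13 from 77740508 to 77741563 and is assigned to the bZIP_2 family. BCL6 (ENSCHIG00000026477) lies on the plus strand of chromosome 1 from 79303611 to 79318601 and is assigned to the BTB family. ETS2 (ENSCHIG00000015389) lies on the plus strand of the same chromosome from 151055225 to 151075662 and is assigned to the Ets family. The genome build behind these positions is not given in the sources used here.

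Levels are given as FPKM (fragment counts scaled by transcript length and library size), which can be set side by side between genes, and as normalized counts, which are scaled by a size factor per goat and are compared only within a table. A difference is the mean log2(normalized count + 1) of the transported goats minus that of the control goats, with its standard error (SE). The effective library size behind the deposited FPKM ranged from 10443023 to 39473244 fragments over the 18 goats. Each table lists only genes that passed the authors' test at an unadjusted p under 0.05, so the tests against control below are not independent evidence that a gene changed. The direct comparison of the transported groups and the relations within a group were not used for the listing. They still cover only listed genes and markers, and the direct comparison only genes listed at both times, so they are not free of that selection. In bulk blood, a change in the number of cells that express a gene cannot be told apart from a change in RNA per cell. The library of 180 min goat 10 stood apart from its group. Its listed genes took 26.2% of its fragments, against 7.93% to 14.3% in the other 180 min goats, its mean correlation with its group was 0.838 against 0.904 to 0.923 for the others, and it held the highest value of all 14 goats in 358 of 1006 genes and the lowest in 199. The differences of CEBPB, BCL6 and ETS2 between the 180 min group and control are therefore also given without this goat. Their correlations within the group are also given without it. Other results of the group, such as SDs, ratios between genes and sums over marker genes, include goat 10 unless stated.

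After 30 min of transport, CEBPB was higher in every transported goat than in every control goat. ETS2 was also higher on average, by a smaller margin and with overlap between the groups. After 180 min, ETS2 and BCL6 were higher than in control, whereas CEBPB split the transported goats into some far above the control range, some inside it and 1 far below it.

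CEBPB was measured at 431 FPKM in 30 min goat 21, 275 in goat 22, 238 in goat 24 and 200 in goat 27. In the 7 control goats it ranged from 56.8 FPKM (goat 8) through a median of 102 to 131 (goat 3). The lowest 30 min goat was thus above the highest control goat, and the groups did not overlap. Normalized counts were 4820 ± 1705 (SD, n = 4) after 30 min and 1760 ± 386 (SD, n = 7) in control. The difference was 1.43 (SE 0.27), which is 2.69-fold on that scale, and the exact two-sided permutation test gave p = 0.00303, the smallest value that 330 splits of the 11 goats allow. In limma's fit of all 430 genes, CEBPB ranked 5 by p-value, with an adjusted p of 0.0419, and 2.09% of the genes had an adjusted p under 0.05. Of the 430 genes, 21.6% were called higher and 24.4% lower at an unadjusted limma p under 0.05, and 6.51% were higher with no overlap between the groups. That split of 93 higher and 105 lower depends on the scaling, with 126 and 22 when each goat was centred on the median listed gene and 111 and 193 in edgeR with the deposited size factors.

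ETS2 was measured at 19.4 FPKM in 30 min goat 21, 12.4 in goat 22, 14.7 in goat 24 and 20.1 in goat 27. In the control goats ETS2 ranged from 6.25 FPKM (goat 4) through a median of 8.62 to 15.9 (goat 3). Goats 21 and 27 were above all 7 control goats, and goats 22 and 24 lay within the control range. Normalized counts were 1250 ± 288 (SD, n = 4) after 30 min against 749 ± 283 (SD, n = 7) in control. The difference was 0.79 (SE 0.26, 1.73-fold) with an exact permutation p of 0.0273, and the adjusted p in limma was 0.103. The call was lost when some single goats were left out, while the difference stayed between 0.68 and 0.85. The exact permutation p was 0.0667 without goat 21 or goat 27, 0.0571 without control goat 1 and 0.05 without goat 24. Both members listed at 30 min were called higher, against the background of 21.6% of genes.

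**Figure D1:**
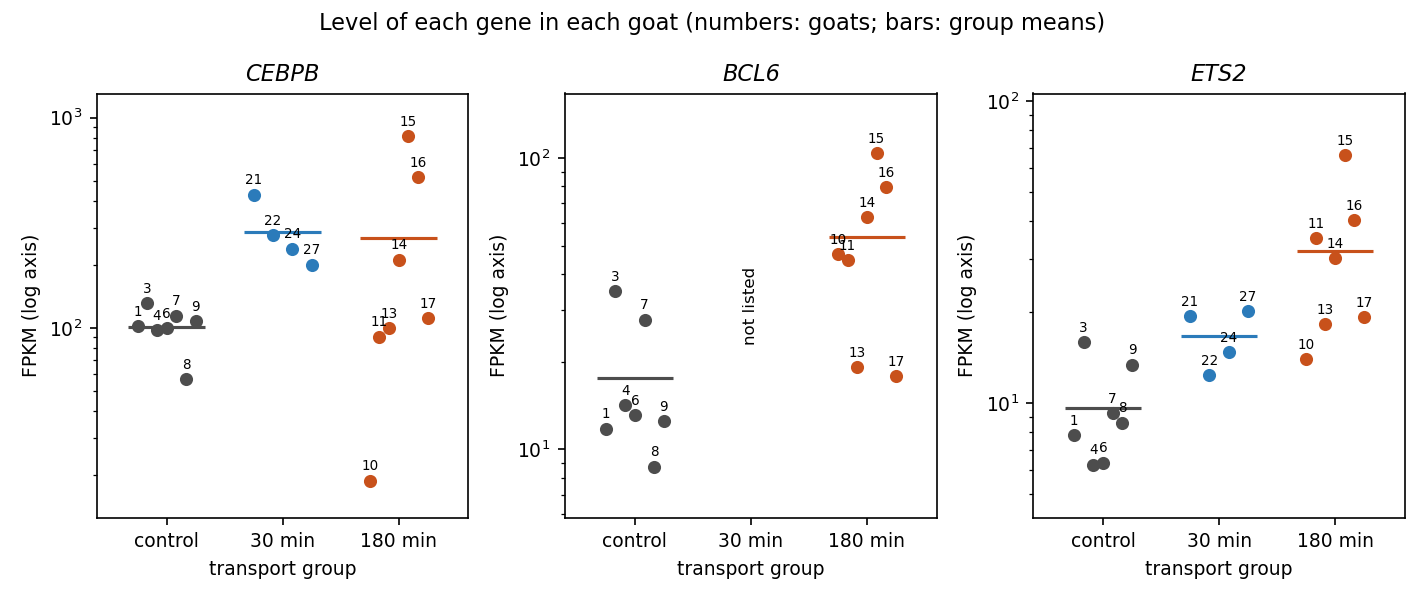
FPKM (log axis) of CEBPB, BCL6 and ETS2 in each goat of the control, 30 min and 180 min groups, where a point is 1 goat with its number and a bar is the group mean. CEBPB in the 30 min goats lies between 200 and 431 FPKM, above all control goats, while the 180 min goats spread from 18.7 to 815 FPKM.

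At 180 min, CEBPB was spread more widely than either of the other genes. It was measured at 815 FPKM in goat 15, 521 in goat 16 and 211 in goat 14, all above the highest control goat at 131. It was 111 FPKM in goat 17, 99.3 in goat 13 and 90.8 in goat 11, all within the control range. Goat 10 had 18.7 FPKM, below the lowest control goat, from 195 reads, for which counting error alone gives an exact 95% Poisson interval of 169 to 224 reads. The 180 min group therefore had goats on both sides of the control range, with 43.6-fold between its highest and lowest FPKM against 2.31-fold in control. Goat 10 alone set the lower end, and without it the 180 min goats ranged from 90.8 to 815 FPKM. The SD of log2(normalized count + 1) was 1.86 in the 180 min goats and 0.39 in the control goats. Among the 1006 genes whose normalized counts averaged 10 or more, 89.6% had a smaller SD than CEBPB in the 180 min group and 22.3% in the control group. The SD and this share include goat 10 and were not computed without it.

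The means of CEBPB differed far more than the medians at 180 min. Normalized counts averaged 5210 ± 5890 (SD, n = 7) after 180 min and 1968 ± 446 (SD, n = 7) in control, with medians of 1983 and 2053. The difference was 0.55 (SE 0.72), below its own error, with an exact permutation p of 0.447, and CEBPB ranked 1234 of 1247 by p-value in limma (adjusted p = 0.431). Without goat 10 the difference was 1.06 with an exact permutation p of 0.0927. Without goat 15 it was 0.13, and without goat 16 it was 0.24. With edgeR on the counts and the deposited size factors the difference was 1.40 with an unadjusted p of 0.0335, the only setting tried in which CEBPB passed the threshold at 180 min.

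ETS2 had the more even shift at 180 min. It ranged from 13.98 FPKM (goat 10) through a median of 30.1 (goat 14) to 66.3 (goat 15). All 180 min goats but goat 10 were above the highest control goat, which had 15.9 FPKM. Normalized counts were 2717 ± 1652 (SD, n = 7) after 180 min and 824 ± 274 (SD, n = 7) in control. The difference was 1.57 (SE 0.36), or 2.97-fold, with an exact permutation p of 0.00117, and the adjusted p in limma was 0.0295. Without goat 10 the difference was 1.74, and the 6 remaining transported goats were all above the control goats (exact permutation p = 0.000583).

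BCL6 was also higher at 180 min, with 2 transported goats at control level. It was measured at 104 FPKM in goat 15, 79.6 in goat 16, 62.7 in goat 14, 46.8 in goat 10, 44.7 in goat 11, 19.2 in goat 13 and 17.8 in goat 17. In the control goats BCL6 ranged from 8.74 FPKM (goat 8) through a median of 13.1 to 34.9 (goat 3). Goats 13 and 17 lay within the control range, and the other 5 transported goats were above it. Normalized counts were 3865 ± 2428 (SD, n = 7) after 180 min and 1282 ± 708 (SD, n = 7) in control. The difference was 1.47 (SE 0.49), or 2.77-fold, with an exact permutation p of 0.0134 and an adjusted p in limma of 0.0470. Without goat 10 the difference was 1.46 (exact permutation p = 0.0210).

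In limma's fit of the 180 min table, 2 of the 3 members were called higher and none lower. Over all 1247 genes, 36.8% were called higher and 25.6% lower at an unadjusted p under 0.05, and 23.7% had an adjusted p under 0.05, as BCL6 and ETS2 did. The split of 459 higher and 319 lower turned round in some settings, to 253 and 440 with median centring, 245 and 480 with edgeR's TMM and 292 and 500 with DESeq2, but not in others, with 648 and 370 in edgeR with the deposited size factors and 485 and 261 with effective library sizes. None of the 3 members separated the groups fully, and 1.84% of the 1247 genes were higher with no overlap.

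**Figure D2:**
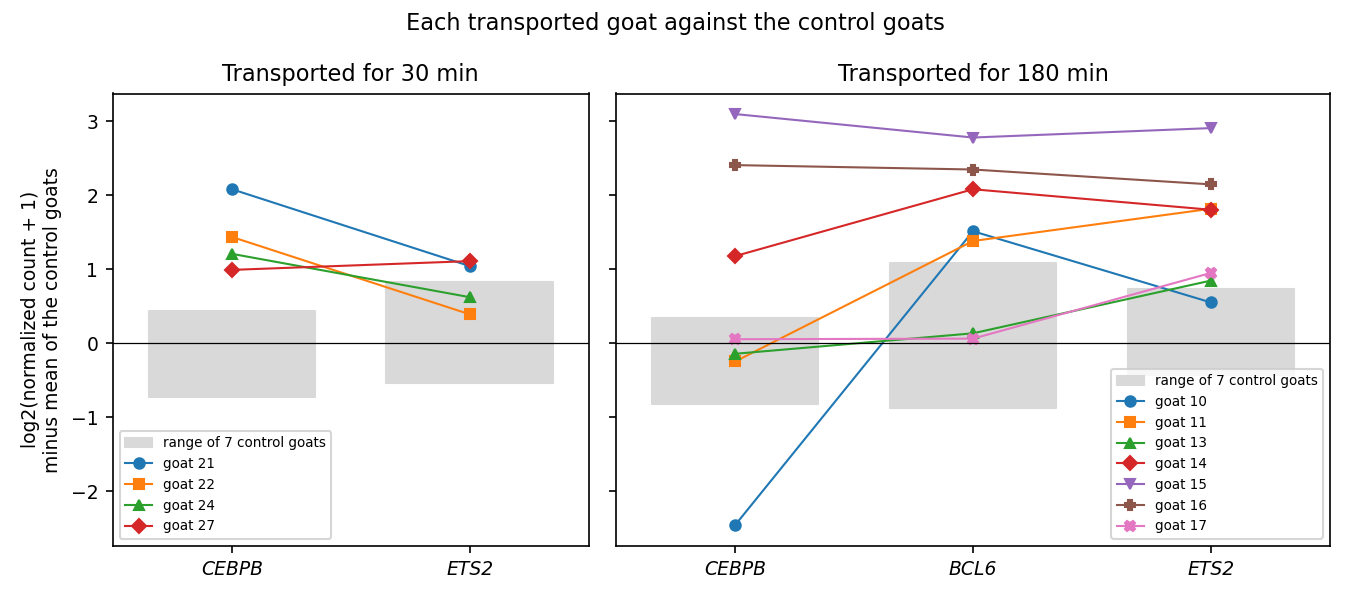
log2(normalized count + 1) of each transported goat minus the mean of the 7 control goats of the same table, for CEBPB and ETS2 at 30 min and for CEBPB, BCL6 and ETS2 at 180 min; lines join the values of 1 goat and grey boxes span the control goats. Goats 15 and 16 lie above the control range for all 3 genes, goats 13 and 17 do so for ETS2 alone, and goat 10 lies 2.46 below the control mean for CEBPB and 1.51 above it for BCL6.

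Set against the control mean of the same table, the 180 min goats fell into different patterns over the 3 genes. In goat 15, CEBPB was 3.09 above the control mean on the log2 scale, BCL6 2.78 and ETS2 2.90. In goat 16 the values were 2.40, 2.34 and 2.14, and in goat 14 they were 1.17, 2.08 and 1.80. These 3 goats exceeded every control goat in each of the 3 genes. Goat 11 was 1.38 above the control mean for BCL6 and 1.81 for ETS2, but was at −0.25 for CEBPB. Goats 13 and 17 were at 0.84 and 0.95 for ETS2 and between −0.15 and 0.13 for CEBPB and BCL6. Goat 10 was at −2.46 for CEBPB, 1.51 for BCL6 and 0.55 for ETS2, so it was the only goat below the control range in 1 gene and above it in another.

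The order of the 3 levels in FPKM was the same in most goats. CEBPB was highest, BCL6 intermediate and ETS2 lowest in 6 of 7 control goats and in 5 of 7 180 min goats. BCL6 and ETS2 changed places in control goat 9 (12.5 and 13.4 FPKM) and in 180 min goat 17 (17.8 and 19.2 FPKM), where they were nearly level. In goat 10 BCL6 was the highest and CEBPB was 0.399 times its level. Over the control goats, the ranges of BCL6 and ETS2 overlapped, whereas the lowest CEBPB value of 56.8 FPKM was above the highest value of either. This order depends on the annotated lengths of 924 bases for CEBPB, 3453 for BCL6 and 4112 for ETS2. On counts scaled only to the effective library size, BCL6 exceeded CEBPB in 180 min goats 10, 11 and 14, and in no other control or 180 min goat.

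The median balance of CEBPB and ETS2 was above that of control after 30 min and below it after 180 min. The ratio of CEBPB to ETS2 in FPKM had a median of 12.4 in control goats, with a range of 6.59 to 15.7. It was 9.94 to 22.3 after 30 min, with a median of 19.2 and 3 of 4 goats above every control goat. It was 1.34 to 12.9 after 180 min, with a median of 5.80, and goats 10, 11, 13 and 17 were below every control goat. The lowest ratio was that of goat 10, and the next lowest was 2.58 in goat 11. The difference in this ratio between groups was not tested.

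The transported groups were compared with each other on counts scaled to the effective library size (CPM), since the 2 tables were normalized separately. On the log2 scale CEBPB was lower by 0.86 (SE 0.71) in the 180 min goats than in the 30 min goats, with an exact permutation p of 0.391 (adjusted over the 2 genes, 0.391). Of the 7 goats of 180 min, 2 were above and 4 were below all 4 goats of 30 min. ETS2 was higher at 180 min by 0.78 (SE 0.33), with 4 of 7 goats above all 30 min goats and an exact permutation p of 0.1 (adjusted, 0.2). Without goat 10 these differences were −0.37 for CEBPB and 0.94 for ETS2 (exact permutation p = 0.595 and 0.0524). Neither gene was thus shown to differ between 30 min and 180 min. Both comparisons with control share the same 7 control goats.

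Relations between the genes were computed within the control group and within the 180 min group, 12 in all, each over 7 goats. In control goats ETS2 rose with the summed level of the 18 neutrophil markers that the 180 min table lists (r = 0.95, exact permutation p = 0.00377, adjusted 0.0452, Spearman rho = 0.96, p = 0.00278, adjusted 0.0333). Without goats 4 and 6, which lay farthest from the median marker level, r was 0.97. This was the only relation of the 12 that passed the adjustment. The same relation had r = 0.32 in the 180 min goats (exact permutation p = 0.487, rho = 0.18, p = 0.713) and r = 0.85 without goat 10 (exact permutation p = 0.0278, rho = 0.89). Goat 10 had the highest marker level of all and the lowest ETS2 of its group. The 2 groups were not compared for this relation.

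CEBPB and BCL6 had no such relation to the neutrophil markers in control goats. There r was 0.17 for CEBPB (exact permutation p = 0.734, rho = 0.57, p = 0.2) and 0.37 for BCL6 (exact permutation p = 0.421, rho = 0.11, p = 0.840). In the 180 min goats it was −0.01 for CEBPB (exact permutation p = 0.979, rho = −0.14, p = 0.783) and 0.62 for BCL6 (exact permutation p = 0.154, rho = 0.43, p = 0.354). Without goat 10 these were 0.59 and 0.70 (exact permutation p = 0.232 and 0.153).

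Among the 3 genes themselves, CEBPB and ETS2 varied together in the 180 min goats (r = 0.88, exact permutation p = 0.00913, adjusted 0.0548, rho = 0.79, p = 0.0480, adjusted 0.263). Without goats 10 and 15, r was 0.63 over 5 goats (exact permutation p = 0.242). Without goat 10 alone it was 0.83 (exact permutation p = 0.0528). BCL6 and ETS2 had r = 0.75 in the 180 min goats (exact permutation p = 0.0556, rho = 0.68, p = 0.110) and r = 0.94 without goat 10 (exact permutation p = 0.00833). CEBPB and BCL6 had r = 0.56 there (exact permutation p = 0.194, rho = 0.64, p = 0.139) and r = 0.84 without goat 10. In control goats, CEBPB and BCL6 had r = 0.77 (exact permutation p = 0.0254, adjusted 0.102, rho = 0.68, p = 0.110), which without goats 3 and 8 was 0.76 over 5 goats (exact permutation p = 0.175). The other control relations had r = 0.40 for CEBPB with ETS2 (exact permutation p = 0.407, rho = 0.75, p = 0.0663) and r = 0.52 for BCL6 with ETS2 (exact permutation p = 0.219, rho = 0.29, p = 0.556). The relation of BCL6 with ETS2 changed sign without goats 3 and 7, to r = −0.27 (exact permutation p = 0.6).

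**Figure D3:**
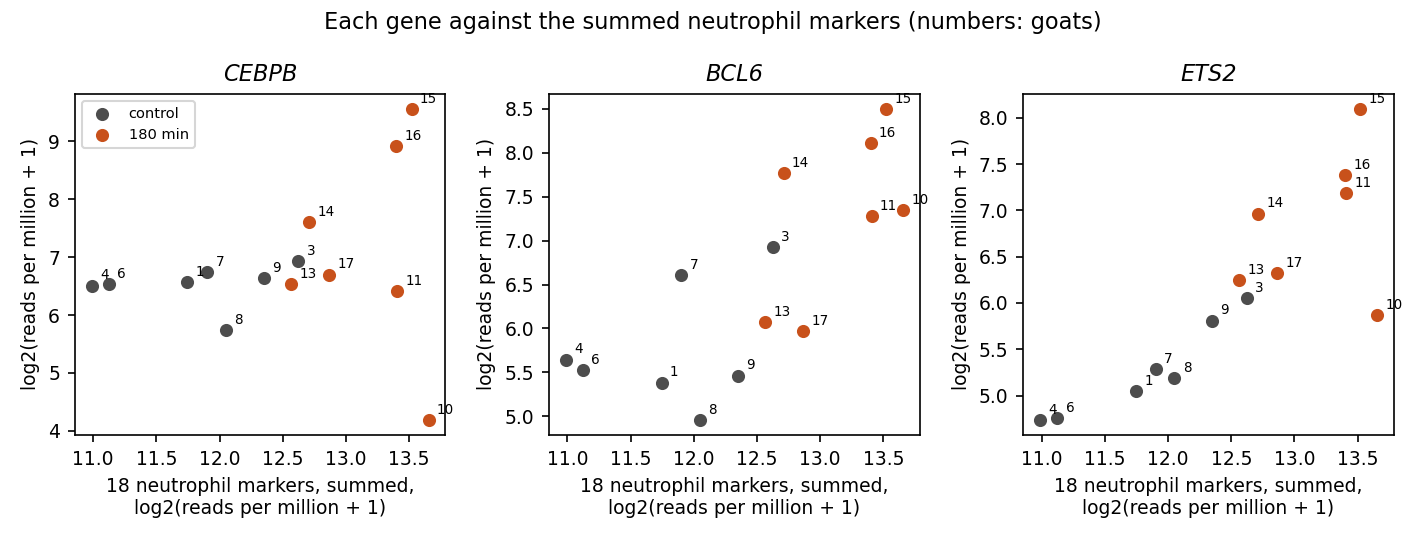
Each of CEBPB, BCL6 and ETS2 (vertical, log2 of CPM + 1) against the sum of 18 listed neutrophil markers (horizontal, same scale) in 7 control and 7 180 min goats, where each point is 1 goat with its number. ETS2 follows the marker level in control goats (r = 0.95), and goat 10 has the highest marker level, close to those of goats 11, 15 and 16, with the lowest CEBPB of all 14 goats.

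Markers of blood cells were counted among the listed genes, all of which had passed the authors' test. At 30 min, limma called only neutrophil markers among them. In the paper's leukocyte counts, neutrophils were higher and lymphocytes lower after the longer transport than in control or after 30 min. The part of blood cell numbers in the results was not tested. At 30 min, 6 of 38 neutrophil markers were listed and all 6 were called higher. The shares over all 430 genes were 21.6% called higher and 24.4% lower. The summed normalized counts of the neutrophil markers were 16574 to 32385 in the 30 min goats and 8243 to 17309 in control. Of 22 B cell markers 5 were listed and none was called by limma at an unadjusted p under 0.05, although the exact permutation test put MS4A1, the CD20 antigen of B cells, at p = 0.0182. Of the NK cell markers only NCR3 and of the eosinophil markers only CCL24 was listed there, and limma called neither, although NCR3 had an exact permutation p of 0.0485. No monocyte, T cell, red cell or platelet marker was listed at 30 min.

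At 180 min, 18 of 38 neutrophil markers were listed, of which 12 were called higher and none lower, or 14 without goat 10. The shares over all 1247 genes were 36.8% called higher and 25.6% lower. The sum of the neutrophil markers was 114077 to 258798 in the transported goats and 46183 to 126634 in control. Of 15 monocyte markers 5 were listed and 3 called higher (CD163, CSF1R and CD14), with a sum of 11244 to 31933 against 3741 to 11499. Of 21 T cell markers 7 were listed and 6 called lower, with a sum of 4583 to 9784 against 8663 to 16912. MS4A1, the 1 listed B cell marker, was called lower by 0.57, and the NK cell marker NKG7 was called higher by 0.88. Both listed eosinophil markers, ADGRE1 and CCL24, were called higher, though CCL24 had at most 30.2 normalized counts in any goat. The platelet gene GP1BB was not called, but stood at 20030 normalized counts in goat 10 against 504 to 3032 in the other 180 min goats.

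The genes whose residual pattern over goats was nearest to each member were found after the mean of each group was taken off. At 30 min, over 11 goats and 240 genes, CEBPB was nearest to ZFP36, which encodes an mRNA-destabilising protein (r = 0.89), to the leukocyte membrane protein gene CD53 (r = 0.77) and to TSC22D3, the glucocorticoid-induced leucine zipper gene (r = 0.77). ETS2 was nearest to the ion transporter gene SLC26A8 (r = 0.92), to the complement receptor gene C5AR1 (r = 0.90) and to the meiotic kinetochore factor gene MEIKIN (r = 0.89), and its r with CEBPB was 0.28. Limma called TSC22D3 (0.91), SLC26A8 (1.28) and C5AR1 (0.87) higher at 30 min. It did not call ZFP36 (0.45), CD53 (0.39) or MEIKIN (−0.94). MEIKIN averaged only 17.8 normalized counts in the 30 min goats and 41.0 in control. The genes named as nearest to CEBPB and to ETS2 at 30 min did not overlap. With so few taken from 240 genes, unrelated sets would seldom share any, and no conclusion was drawn from this.

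At 180 min, over 14 goats and 773 genes, CEBPB was nearest to GYG1, which primes glycogen synthesis (r = 0.97, or 0.94 without goat 10), to MARCKS, an actin-binding substrate of protein kinase C (r = 0.96, or 0.94), and to PTAFR, the receptor for platelet-activating factor (r = 0.96, or 0.93). BCL6 was nearest to KIAA0513 (r = 0.95), to the ataxin gene ATXN1 (r = 0.94) and to IQSEC1, an exchange factor for ARF GTPases (r = 0.91). ETS2 was nearest to PFKFB4, an enzyme that sets the level of a glycolytic activator (r = 0.94), to the arginase gene ARG2 (r = 0.93) and to the orphan receptor gene GPR27 (r = 0.91). The 3 genes nearest to CEBPB were not called by limma at 180 min, with differences of 0.79 to 0.82, but all 3 were called higher without goat 10, GYG1 with 1.08, MARCKS with 1.16 and PTAFR with 1.34. The 3 nearest to BCL6, KIAA0513 (1.27), ATXN1 (1.44) and IQSEC1 (0.90), were called higher with and without goat 10. Of the 3 nearest to ETS2, PFKFB4 (1.14) and ARG2 (0.99) were called higher, and GPR27 (0.99) was called only without goat 10, with 1.20. These correlations describe the listed genes, which share libraries, and carry no test.

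The C/EBP family has 7 members in the list used here. For the family counts below, the shares over all genes were 21.6% called higher and 24.4% lower at 30 min. At 180 min they were 36.8% and 25.6%. CEBPB was the only C/EBP gene listed at 30 min. At 180 min CEBPD, an acute phase factor induced by cytokines and glucocorticoids, and CEBPA, the factor needed for granulocyte precursors, were also listed, and both were called higher, with differences of 1.59 (limma SE 0.34, adjusted p = 0.0291) and 0.81 (limma SE 0.25, adjusted p = 0.0421). CEBPD was measured at 574 to 1408 FPKM in the 180 min goats and 154 to 859 in control, and 6 of the 7 transported goats exceeded every control goat. Its level in goat 10 was 1345 FPKM, near that of goat 15 at 1333 FPKM, so the goats that were farthest apart in CEBPB were level in CEBPD. CEBPA was 20.0 FPKM in goat 10, 21.8 in goat 15 and 36.4 in goat 16, with a range of 8.57 to 22.2 in control. The SD of log2(normalized count + 1) over the 180 min goats was 0.42 for CEBPD and 0.32 for CEBPA, against 1.86 for CEBPB. These SDs include goat 10, which had the lowest CEBPB, and were not computed without it.

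Of 27 ETS family genes, 3 were listed at 30 min, where ETS2 was the only 1 called. SPDEF had a difference of −1.21 (limma SE 0.99) and ELK4 of −1.16 (limma SE 0.77). At 180 min ETS2 was the only ETS gene listed. Of 33 BTB zinc finger factors and corepressors, none was listed at 30 min and 5 at 180 min. HDAC4, a class IIa histone deacetylase that binds BCL6, was called higher by 0.91, but not without goat 10. HDAC5, of the same class, had a difference of 0.93, or 0.51 without goat 10, and was called in neither case. PATZ1 and HIC1, BTB zinc finger factors like BCL6, were called lower by −0.63 and −0.78.

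Genes of signalling pathways, including feedback inhibitors of them, were counted from lists drawn from general knowledge. Their link to the 3 factors in these goats was not tested. Over all genes, 21.6% were called higher and 24.4% lower at 30 min, and 36.8% and 25.6% at 180 min. Of 26 genes of interleukin 6, G-CSF and STAT signalling, 2 were listed at 30 min and both were called higher. These were SOCS1 (2.56) and SOCS3 (0.77), feedback inhibitors of cytokine receptors. At 180 min 4 were listed and 3 called higher. PTPN1, a phosphatase that acts on JAK kinases, had a difference of 1.33, the GM-CSF receptor gene CSF2RA 1.10 and the G-CSF receptor gene CSF3R 0.90, while SOCS3, with 0.78, was called only without goat 10. The median of the listed genes was 1.66 at 30 min and 1.00 at 180 min, against −0.92 and 0.68 over all genes. PTPN1 is also the gene next to CEBPB in RefSeq's order of genes on ARS1.2. Of the 18 genes within 3 places of the 3 members it was the only 1 found by name among the listed genes. Genes listed without a name may have been missed. The share of all genes in the genome that is listed was not computed, so this count only describes position. PTPN1 was highest of all 14 goats in goat 10 (361 FPKM), where CEBPB was lowest, and next highest in goat 15 (278 FPKM), where CEBPB was highest.

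Of 32 genes of RAS, ERK and p38 signalling, 3 were listed at 30 min, of which the MAP kinase phosphatase gene DUSP1 was called higher (1.13). HRAS (−0.98) and MAPK12 (−0.90) were not called. At 180 min 6 were listed and 4 called higher, among them the p38 kinase genes MAPK14 (1.28) and MAPK13 (1.26) and MAPKAPK2 (0.69), a kinase downstream of p38. RPS6KA1 and DUSP1 were not called, although RPS6KA1 (0.49) had an exact permutation p of 0.0361. DUSP1 had a difference of 0.45 (limma SE 0.72), or 1.04 without goat 10, where it was not called either. The median of the listed genes was −0.90 at 30 min and 0.72 at 180 min, near those of −0.92 and 0.68 over all genes. Of all genes, 21.6% were called higher at 30 min and 36.8% at 180 min.

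**Figure D4:**
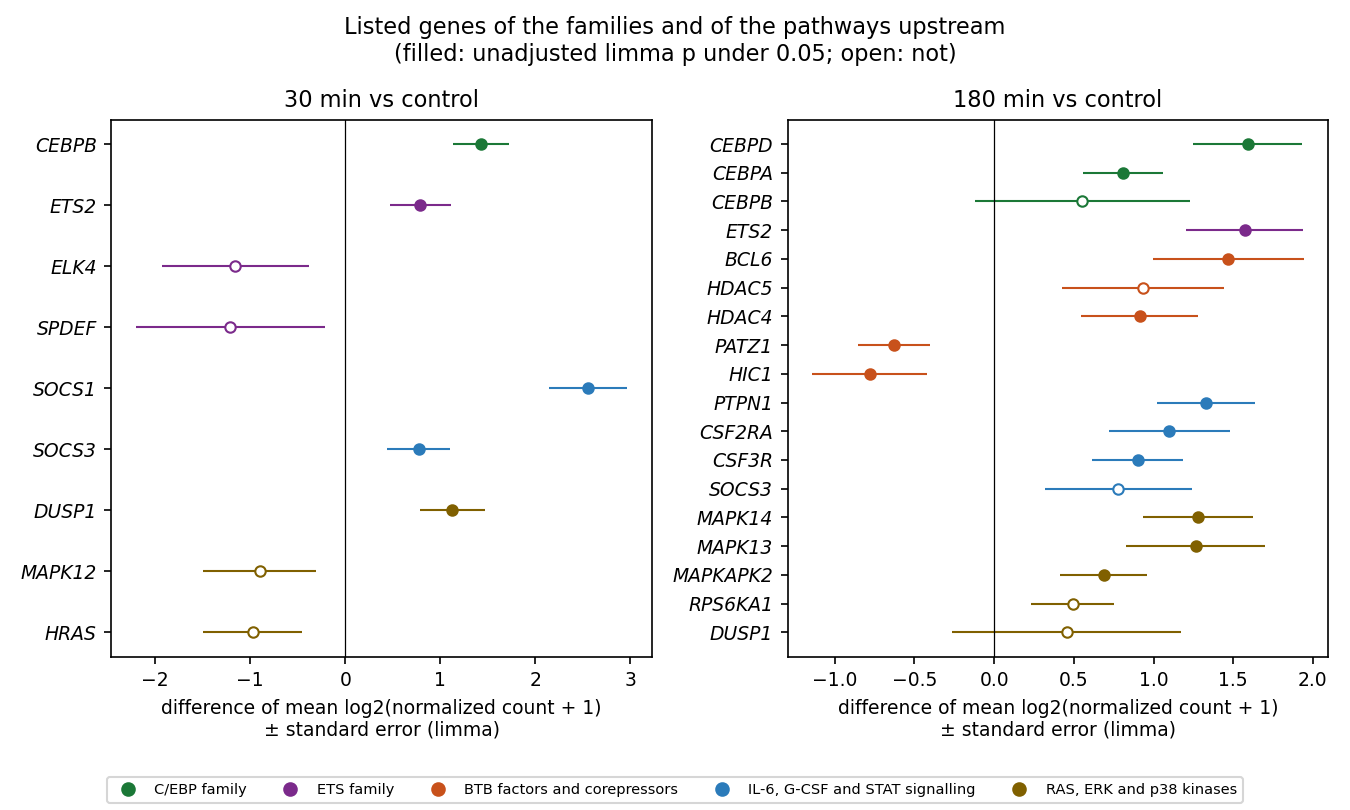
Difference in mean log2(normalized count + 1) from control, with its limma SE, for listed genes of the C/EBP family, the ETS family, the BTB factors and corepressors, and the signalling lists, at 30 min (left) and 180 min (right). Filled points passed an unadjusted limma p under 0.05 and open points did not; CEBPB is filled at 30 min (1.43) and open at 180 min (0.55).

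Downstream of the factors, 11 of 30 genes bound or induced by C/EBP factors in phagocytes were listed at 180 min. Of these, 9 were called higher and 1 lower, against 36.8% and 25.6% of all 1247 genes. The median difference of the 11 was 1.43 against 0.68 over all 1247 genes. CXCL8, the neutrophil chemoattractant (2.89), LTF, an iron-binding granule protein gene (2.46), and the calcium-binding protein genes S100A8 (1.83, not called without goat 10) and S100A12 (1.74) had the largest differences of those called higher. CCL2, a monocyte chemoattractant, was called lower (−1.67), but had at most 12.9 normalized counts in any goat. Of the 11 listed genes 6 are also in the neutrophil or monocyte marker lists. At 30 min 2 of the 30 were listed, CXCL8, called higher by 3.79, and TNF, called lower by −2.43. The lowest normalized count was 0 for CXCL8 in control at both times and 0 for TNF in the 30 min goats. The size of these differences therefore depends on the count of 1 added before the log2. Mean normalized counts at 30 min were 177 against 27.1 in control for CXCL8, and 40.1 against 114 for TNF. Of all 430 genes 21.6% were called higher and 24.4% lower.

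Of 26 genes that BCL6 represses in lymphocytes, 5 were listed at 30 min, where BCL6 itself is not, and 4 of them were called higher. These included the early activation marker CD69 (1.26), MYC (0.87) and PRDM1, which encodes the plasma cell factor Blimp-1 (0.64), and BATF (−0.77) was not called. At 180 min, where BCL6 was higher, 3 of the 26 were listed. PRDM1 (0.84) and the adhesion receptor gene CD44 (0.75) were called higher, and CDKN1A (1.58) was called only without goat 10. The median difference of the listed genes was 0.87 at 30 min against −0.92 over all 430 genes, and 0.84 at 180 min against 0.68 over all 1247 genes. Of all genes 21.6% were called higher at 30 min and 36.8% at 180 min, only 5 and 3 genes of the list are listed, and the list was not tested against the other genes.

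Glucocorticoids are hormones of the stress response that act on blood cells through a nuclear receptor. Of 29 genes that they induce, 10 were listed at 30 min and all 10 were called higher, against 21.6% of all 430 genes. The median difference of the 10 was 1.13 against −0.92 over all 430 genes. DDIT4, an inhibitor of mTOR (1.76), NFKBIA, the inhibitor of NF-κB (1.68), the kinase gene SGK1 (1.34) and the chemokine receptor gene CXCR4 (1.19) had the largest differences. At 180 min 9 were listed and 5 called higher, or 8 without goat 10, against 36.8% of all 1247 genes. The median of the 9 was 1.40 against 0.68 over all 1247 genes. Those called higher included the interleukin 1 decoy receptor gene IL1R2 (4.57), IL18RAP (3.20), the haemoglobin scavenger receptor gene CD163 (1.90) and DDIT4 (1.63). IL1R2 is also in the neutrophil marker list and CD163 in the monocyte marker list. Of 25 immediate early genes 6 were listed at 30 min, of which limma called FOSB (2.25), FOS (1.34) and MYC (0.87) higher. Over all 430 genes, limma called 21.6% higher and 24.4% lower. The exact permutation test did not pass FOSB (p = 0.0576) and passed ZFP36 (0.45, p = 0.0212), JUN (0.66, p = 0.0303) and, in the lower direction, IER2 (−0.53, p = 0.0455), which limma did not call. At 180 min 2 were listed, of which FOSL2 (1.63) was called higher, with FOS (0.71) called only without goat 10.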

How the data were processed

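Blood RNA of 18 goats was analysed from 2 tables, 1 per transport time, with 7 control goats shared by both. Per the study's methods, the authors trimmed reads with fastp and aligned them with HISAT2. For the tests the methods name both edgeR, with TMM scaling, and DESeq2, and the study's results credit DESeq2. The genome build and the counting tool are not given in the sources used here. The authors deposited, for each listed gene, read counts, normalized counts (signal values scaled by DESeq2-type size factors) and FPKM per goat, and the results of their own test, namely a log2 ratio of the groups with its p-value before and after adjustment. The deposited log2 and p-value columns were not used, except to check that each table lists only genes with a p-value under 0.05. The largest was 0.0500. Names were missing for 119 of 430 and 308 of 1247 genes.

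Members were taken by symbol; members and gene lists were chosen with earlier results of these data known. Because unchanged genes are not in the tables, dispersions and TMM factors could be estimated only from listed genes, so limma 3.58.1 on log2(normalized count + 1) over all genes of a table, with Benjamini-Hochberg adjustment, replaced edgeR as the test; a gene was called at an unadjusted p under 0.05. For each member, all splits of the goats were enumerated in a two-sided exact permutation test (smallest p 0.00303 for 4 against 7 goats and 0.000583 for 7 against 7). Goats are the replicates; p-values measure the spread between goats. Levels across tables and correlations used counts scaled to the effective library size (CPM), obtained from counts, gene lengths and FPKM. Pseudocounts of 0.1 and 10, filters, other scalings, edgeR 4.0.16, DESeq2 1.42.0 and leaving out each goat were tried, and after seeing the data also leaving out goat 10 in correlations, lists and nearest genes. The models were tested on simulated data. Among pairs of libraries from 1 group, at most 7.85% of compared genes had identical counts. Genes named are the 3 members, the 3 genes nearest to each, and at most 4 listed genes per gene list and table with the largest called differences, with further genes of a list named where a count turns on them; some listed genes are counted but not reported here by name. Intervals on reads cover counting error only. R 4.3.3, Python 3.11.15, scipy 1.17.1.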

Additional observations from a re-analysis of the deposited data

Results flagged for a closer look

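Control goat 8 had the lowest CEBPB of its group in both tables, set apart from the other 6 control goats. On the log2(normalized count + 1) scale, its gap to the nearest control goat was 0.623 of the group's whole range in the 30 min table and 0.686 in the 180 min table, both above Dixon's 95% limit for 7 samples. On linear scales the same share was 0.549 of FPKM and smaller still of normalized counts in the 30 min table, both under that limit, and 0.596 of normalized counts in the 180 min table, above it. These linear values were computed after seeing the data. It had 548 reads of CEBPB and 56.8 FPKM, against 97.6 to 131 FPKM in the other control goats. The same library enters both tables, so these are not separate observations. In all, 10 combinations of gene, table and group were checked, and chance gives such a gap in about 1 in 20 groups.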

How the results depend on the processing

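No paired analysis was possible because goat numbers are not shared between groups. CEBPB and ETS2 at 30 min and BCL6 and ETS2 at 180 min stayed higher than control under each other setting tried. With 1 goat left out, the difference of CEBPB was 1.21 to 1.57 at 30 min and 0.13 to 1.06 at 180 min, that of ETS2 was 0.68 to 0.93 at 30 min, where 4 of the 11 omissions ended the call, and 1.35 to 1.74 at 180 min, and that of BCL6 was 1.25 to 1.70. The direct differences between 180 min and 30 min ranged from −1.26 to −0.37 for CEBPB and from 0.57 to 0.94 for ETS2. Limma's count of called genes ranged from 105 (without goat 24; 109 without goat 21) to 221 at 30 min, against 198, and from 625 to 762 at 180 min, against 778. edgeR with the deposited size factors called 304 genes at 30 min and gave CEBPB at 180 min a difference of 1.40.

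Scaling moved the split of calls. Centring each goat on the median listed gene shifted all differences by 0.61 at 30 min and −0.26 at 180 min, and effective library sizes shifted them by 0.05. Calls at 30 min were 93 higher and 105 lower in limma, 126 and 22 with median centring, 97 and 142 with edgeR's TMM, and 126 and 114 with DESeq2. At 180 min they were 459 and 319, 253 and 440, 245 and 480, and 292 and 500, in the same order.

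Without the 2 goats farthest from the median, r of BCL6 with ETS2 in control was −0.27, of CEBPB with BCL6 in control 0.76, and of CEBPB with ETS2 at 180 min 0.63. With normalized counts, r at 180 min was 0.79 for BCL6 with ETS2 and 0.12 for the neutrophil markers with CEBPB. Without goat 10, r at 180 min was 0.83 for CEBPB with ETS2, 0.94 for BCL6 with ETS2, and 0.59 and 0.85 for the neutrophil markers with CEBPB and ETS2. The causes were not tested.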
